A study of Homo sapiens with 4 samples.

Results

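TENM4 (ENSG00000149256), MAGI2 (ENSG00000187391), DLG2 (ENSG00000150672) and ASTN2 (ENSG00000148219) are 4 very long genes with known roles in nerve cells, taken from 17764 genes with a listed peak. They were chosen by their share of the peaks, which was lower in both eCLIP libraries than in both inputs, so that difference is the reason they are shown and not a result. Together they held 182 of the 595484 intervals listed over the 4 libraries. Enhanced crosslinking and immunoprecipitation (eCLIP) collects pieces of RNA crosslinked by ultraviolet light to a chosen protein, here FLAG-ZFR, a tagged copy of the zinc finger RNA-binding protein ZFR. All 4 libraries came from polyclonal HEK-293 Flp-In TREx cells with FLAG-ZFR stably integrated at the FRT site. In these cells, of embryonic kidney origin, doxycycline at 1 µg/mL for 48 to 72 h switched on the transgene, and the crosslinking energy was 400 mJ/cm2. There were 2 eCLIP libraries and 2 size-matched inputs, which sample the RNA of the same size range without the pull-down. The tagged protein was made from a transgene in a kidney line, no untagged cells were among the libraries, and the cell type was not checked against markers because the lists pair no gene names with their identifiers.

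Genes of this kind are transcribed as precursors made mostly of intron, and the introns near the 5′ end are often the longest. TENM4 encodes a teneurin, a transmembrane adhesion protein that pairs with latrophilins across cell contacts. MAGI2 and DLG2 (also known as PSD-93) encode membrane-associated guanylate kinases, scaffolds whose PDZ domains hold receptors and channels at the synapse. MAGI2 also serves at the slit diaphragm of kidney podocytes. ASTN2 encodes astrotactin 2, which controls how much astrotactin 1 reaches the surface of neurons that migrate along glia.

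The lists differed widely in length, from 11204 peaks in input 2 and 41904 in eCLIP 2 to 63068 in input 1 and 479308 in eCLIP 1. The number that ends each peak's name was taken as its reads, which the files do not state. It is at least 3 in every line, and 32.0% to 62.3% of the peaks of a library rested on 3 reads. Sequencing depth is unknown. Whether replicates stem from different cultures is not stated in the labels. 2 libraries against 2 cannot give an exact two-sided permutation p below 0.33.

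All 4 genes lie on the minus strand, and their intervals were few and narrow along very long stretches of hg19. The listed intervals of TENM4 ran over chr11:78387161-79151237, a span of 764 kb, and those of MAGI2 over chr7:77871053-79081761, 1211 kb. For DLG2 the span was chr11:83176215-85302788, or 2127 kb, and for ASTN2 it was chr9:119193083-120094847, or 902 kb. Over all libraries the intervals covered 1732 bases of TENM4, 1294 of MAGI2, 633 of DLG2 and 329 of ASTN2, counting each listed line. Which of these positions are exonic or intronic was not analysed here, and no hg19 sequence was used. In this strand the highest coordinate is the 5′ end, and distances below run from the 5′-most listed base of each gene, not from an annotated start, to the position deposited inside each interval.

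TENM4 held 45 of the peaks of eCLIP 1, none of eCLIP 2, 28 of input 1 and 5 of input 2. Per 10000 peaks of the library these were shares of 0.939 (95% Wilson interval 0.702 to 1.26) in eCLIP 1, 4.44 (3.07 to 6.42) in input 1 and 4.46 (1.91 to 10.4) in input 2. In eCLIP 2 the count of 0 allows a share of up to 0.716 per 10000, taking 3 counts as the limit. The inputs were level with each other and both lay above eCLIP 1, although eCLIP 1 listed the most TENM4 intervals. Intervals and limits cover counting error only and treat each listed line as a separate count. In input 1, 11 of the 28 TENM4 lines touch the next one with equal reads, so input 1 intervals may be too narrow.

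MAGI2 held 28 peaks in eCLIP 1, none in eCLIP 2, 25 in input 1 and 4 in input 2. The shares were 0.584 (0.404 to 0.844), 0, 3.96 (2.69 to 5.85) and 3.57 (1.39 to 9.18) per 10000 peaks in that order. As for TENM4, both inputs were high, eCLIP 1 was low and eCLIP 2 had no line. An interval of 6 reads in input 1 and one of 3 reads in input 2 were also listed under an overlapping gene, ENSG00000235751.3.

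DLG2 was the only one of the 4 with peaks in every library, with counts of 8 in eCLIP 1, 2 in eCLIP 2, 15 in input 1 and 6 in input 2. Its shares were 0.167 (0.0846 to 0.329) and 0.477 (0.131 to 1.74) in eCLIP against 2.38 (1.44 to 3.92) and 5.36 (2.45 to 11.7) per 10000 in the inputs. The intervals of eCLIP 2 and input 1 overlapped for this gene.

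ASTN2 had 1 peak in eCLIP 1, none in eCLIP 2, 13 in input 1 and 2 in input 2. Its shares were 0.0209 (0.00368 to 0.118) in eCLIP 1, 2.06 (1.20 to 3.53) in input 1 and 1.79 (0.490 to 6.51) in input 2. Of the 4 genes it had the fewest intervals in all, at 16. The eCLIP 2 limit of 0.716 lay above the lower end of the input 2 interval, so at this list length the absence from eCLIP 2 does not separate those libraries.

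The fitted differences of eCLIP minus input are given as a description, since they rest on the values that chose the genes. On the log2(share + 0.5) scale, which understates changes of small shares, they were -2.55 (SE 0.80) for TENM4, -2.53 (SE 0.79) for MAGI2, -2.35 (SE 0.79) for DLG2 and -2.25 (SE 0.81) for ASTN2. Ordered from the most negative of 8914 genes tested, they stood at places 1, 2, 3 and 7. These places turned with the setting. With 0.1 added in place of 0.5 they were 6, 5, 25 and 1, and with 2 added they were 2, 3, 4 and 44. By covered bases they were 27, 37, 38 and 36. With input 1 left out they were 46, 62, 18 and 116, and with eCLIP 2 left out 108, 61, 2 and 25. Over all genes the median difference was 0.16. Both eCLIP shares lay below both input shares in 10.2% of all genes tested, and in the 4 genes by choice. A gene without an input 2 peak cannot meet this rule, and the median input 2 share over all genes tested was 0. limma, a linear model with moderated variances fitted to all genes, called 0 genes (0%) lower after Benjamini-Hochberg adjustment, and 62 at an unadjusted p under 0.05.

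**Figure D1:**
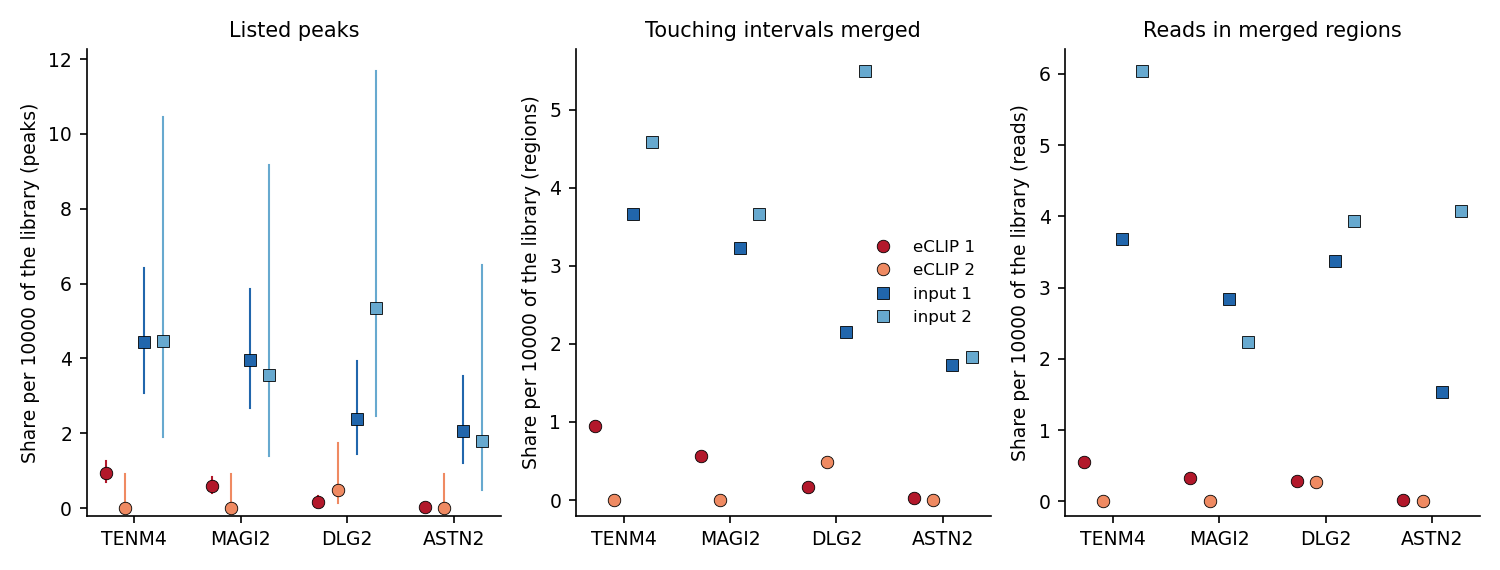
Share of each library held by the 4 genes, per 10000 listed peaks (left, lines are 95% Wilson intervals), per 10000 regions after touching intervals were merged (middle) and per 10000 reads in those regions (right). Circles are eCLIP 1 and 2 and squares are input 1 and 2; in every panel and gene both circles lie below both squares, as the choice of the genes fixed for the left panel.

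How often intervals touch, that is, how often one begins at the base after the last one ended, was not a criterion of the choice. Touching still entered the shares that chose the genes, since each interval of a touching pair counts as a listed peak. Of the 81 intervals of input 1 in the 4 genes, 31 (38.3%) touched the next one. These were 11 pairs among 28 intervals in TENM4, 10 among 25 in MAGI2, 5 among 15 in DLG2 and 5 among 13 in ASTN2. The other libraries held 1 such pair in these genes, in MAGI2 of eCLIP 1, at chr7:77871054-77871061 and chr7:77871062-77871094 with 6 reads each. The share in the 4 genes was close to that of all minus-strand genes of input 1, at 39.6%, while plus-strand genes had 7.97%. In the other libraries it was 0.92% to 3.03% on the minus strand and 0.42% to 2.15% on the plus strand.

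The 2 intervals of a pair carried the same number of reads in all 31 cases. In 23 pairs both had 3 reads, in 7 both had 4 and in 1, in MAGI2, both had 5. The interval with the lower coordinates was always the short one, from 3 to 10 bases, and its neighbour measured 12 to 36 bases. The position deposited inside the short interval lay 1 above its deposited start in all 31 pairs, and in none of the remaining intervals of the 4 genes in input 1. An example from TENM4 is chr11:78387161-78387168, of 8 bases, followed by chr11:78387169-78387195, of 27 bases, with 3 reads each. Over all minus-strand genes of input 1, 98.5% of 14589 pairs had equal reads and 99.2% had a position placed in that way. Whether both intervals of a pair count the same reads was not tested.

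**Figure D2:**
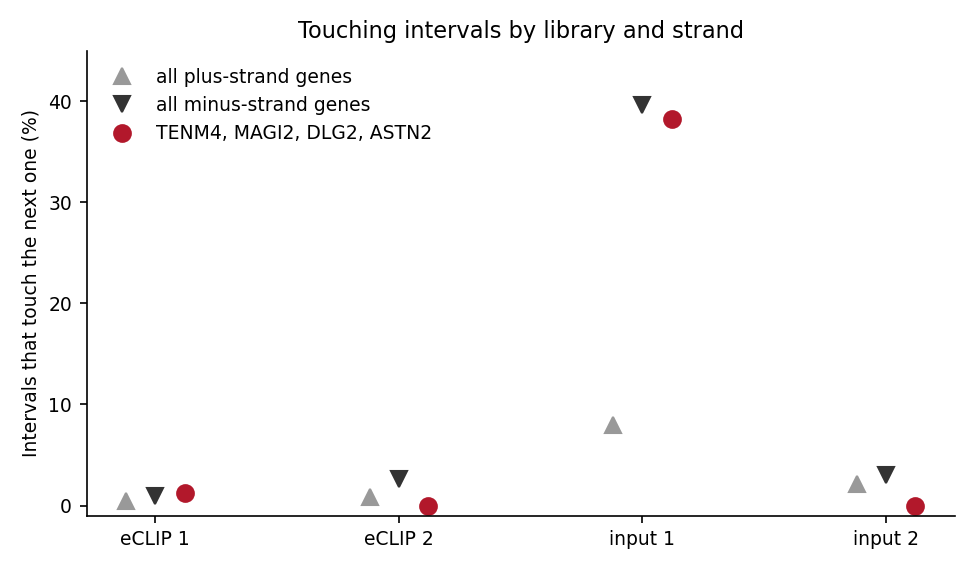
Percentage of listed intervals that touch the next interval of the same gene, by library, for all plus-strand genes, all minus-strand genes and the 4 genes together. Input 1 reaches 39.6% on the minus strand and 38.3% in the 4 genes, and the remaining values lie at 7.97% or below.

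With touching intervals merged into regions, the input 1 counts fell from 28 to 17 in TENM4, from 25 to 15 in MAGI2, from 15 to 10 in DLG2 and from 13 to 8 in ASTN2. The eCLIP counts stayed as listed except for MAGI2 in eCLIP 1, which went from 28 to 27. Because the whole list of input 1 shrank as well, to 46390 regions, its shares moved less than its counts. They came to 3.66 per 10000 regions for TENM4, 3.23 for MAGI2, 2.16 for DLG2 and 1.72 for ASTN2. The eCLIP 1 shares were 0.945, 0.567, 0.168 and 0.0210 in the same order. All 4 genes again had both eCLIP shares below both input shares, as had 10.2% of all genes on this count. By strand the rate over all genes was 12.9% on the minus and 7.52% on the plus strand as listed. After merging it was 10.5% and 9.92%. The difference on the log2 scale stayed between -2.44 and -2.16.

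Read sums also put both eCLIP libraries below both inputs in each gene. As listed, TENM4 peaks held 160 reads in eCLIP 1, 105 in input 1 and 46 in input 2. Per 10000 reads in peaks that was 0.520 in eCLIP 1, 4.21 in input 1 and 4.51 in input 2. Taking the highest interval of each merged region in place of their sum, input 1 had 70 reads in TENM4, 54 in MAGI2, 64 in DLG2 and 29 in ASTN2. Those were 3.69, 2.85, 3.37 and 1.53 per 10000, against 0.551, 0.324, 0.286 and 0.0172 in eCLIP 1. Input 2 had 6.04, 2.23, 3.94 and 4.07 per 10000 on this measure, and eCLIP 2 had reads only in DLG2, at 0.278. All 4 genes were below both inputs by listed reads, by reads in regions and by covered bases, where 9.08%, 10.5% and 9.68% of all genes were. These measures share the peaks that chose the genes and lend the choice no independent support.

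Few peaks of the 4 genes had over 10 reads. In eCLIP 1 the reads per interval had a median of 3 in TENM4 (range 3 to 7) and in MAGI2 (3 to 6), and 31 of 45 and 18 of 28 intervals sat at the minimum of 3. DLG2 had a median of 4 there (3 to 45), with 2 of 8 intervals at 3 reads, and the single ASTN2 interval had 5. Over the whole list of eCLIP 1, 32.0% of intervals had 3 reads, against 62.2% in the 4 genes pooled, most of them from TENM4 and MAGI2. In input 1 the share at 3 reads was 64.2% in the 4 genes and 62.3% in the whole list. In input 2 it was 35.3% and 49.2%. The intervals with over 10 reads numbered 2 in eCLIP 1, none in eCLIP 2, 2 in input 1 and 3 in input 2. That was 2.44% of the intervals of the 4 genes in eCLIP 1, 2.47% in input 1 and 17.6% in input 2. The whole lists had 8.36%, 1.17% and 9.41% in that order, and that of eCLIP 2 had 5.62%. The share was thus below the whole list in eCLIP 1 and above it in both inputs.

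The authors' p-values ran up to 0.05 in each list, and the highest in the 4 genes was 0.0251. The median p-value in the 4 genes was 0.0220 in eCLIP 1, 0.0191 in input 1 and 0.00368 in input 2, against 0.0106, 0.0193 and 0.0130 over the whole lists. For a peak of 3 reads in eCLIP 1 the deposited p-value lay between 0.0208 and 0.0251 in TENM4, between 0.0211 and 0.0234 in MAGI2 and between 0.0196 and 0.0199 in DLG2. At a limit of 0.001 the intervals left in eCLIP 1 were 5 in TENM4, 4 in MAGI2, 3 in DLG2 and 1 in ASTN2. Input 1 then kept 2, 3, 2 and 1 and input 2 kept 3, 1, 2 and 2, while eCLIP 2 kept none. In the 4 genes together this left 15.9% of the intervals of eCLIP 1, 9.88% of input 1 and 47.1% of input 2, where the whole lists kept 23.3%, 12.6% and 28.7%. For eCLIP 2 it was 0 of 2 intervals, against 21.9% of its list. The peak names carry a number that starts from 0 in each gene. In eCLIP 1 it reached 59 in TENM4 and 41 in MAGI2, so 45 of 60 and 28 of 42 numbered peaks were listed there. In the other 2 genes of eCLIP 1, and in all 4 genes of input 1 and input 2, every number up to the highest was listed.

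Joined across libraries wherever they overlapped or touched, the intervals made 140 sites, of which 131 were listed in a single library. Of the rest, 5 were in both inputs and in no eCLIP library, 4 were shared between eCLIP and input, and none was in both eCLIP libraries without an input. The sites of the inputs lay in TENM4, DLG2 and ASTN2, and those shared with eCLIP in MAGI2, DLG2 and ASTN2.

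The strongest site found in both inputs was in TENM4 at chr11:78455322-78455349, 28 bases wide, with 15 reads in input 1 and 25 in input 2. It lay 696 kb from the 5′ end of the listed span. 2 weaker TENM4 sites were at chr11:78855092-78855110, with 4 and 8 reads, and at chr11:78941422-78941439, with 3 and 4. In ASTN2 the site chr9:119325851-119325878 had 6 reads in input 1 and 25 in input 2. In DLG2 the site chr11:83182292-83182315, near the 3′ end of the span, had 4 and 11. Input 2 had the higher number at all 5 of these sites, and neither eCLIP library listed an interval there.

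The site with the most reads in any library lay in DLG2 at chr11:84792712-84792749, 38 bases wide. It had 45 reads in eCLIP 1, 3 in eCLIP 2 and 30 in input 1, not scaled to the library. All listed peaks held 3075352 reads in eCLIP 1, 229647 in eCLIP 2 and 249245 in input 1, so the reads at this site do not rank the libraries. In eCLIP 1 the deposited p-value of the site was 1.88e-58 and in input 1 it was 5.16e-35. A neighbour at chr11:84792766-84792798 had 14 reads in eCLIP 1 and 6 in input 1. These sites held 59 of the 83 reads that eCLIP 1 listed for DLG2. Input 2 had no interval at either, although its list held 6 for the gene.

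The remaining shared sites were weak. The single ASTN2 peak of eCLIP 1, at chr9:119497379-119497404 with 5 reads, coincided with an input 1 interval of 4 reads at chr9:119497379-119497402. In MAGI2 the touching pair of eCLIP 1 at the 3′ end of the span fell on an input 1 interval of 3 reads at chr7:77871053-77871091. The rest of the MAGI2 intervals met none of another library.

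Of the 82 eCLIP 1 intervals in these genes, 5 (6.10%, 2.63 to 13.5) overlapped an input 1 interval by at least 1 base. The figure was 1.54% (1.49 to 1.59) for all minus-strand intervals of eCLIP 1. In the other direction, 4 of 81 input 1 intervals (4.94%, 1.94 to 12.0) met eCLIP 1, against 11.7% (11.3 to 12.0) on the whole strand. None of the 17 intervals of input 2 met eCLIP 1 (upper end 18.4%), where 25.4% (24.3 to 26.6) of its minus-strand intervals did, and 5 of the 17 (29.4%, 13.3 to 53.1) met input 1, where 18.7% (17.7 to 19.8) did. The 5 eCLIP 1 intervals include the MAGI2 touching pair, and after merging 4 of 81 regions (4.94%) met input 1. A gene with few eCLIP peaks also offers few to meet, and a gene with a high input share offers more input intervals. The shares in both directions are thus tied to the choice of the genes.

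**Figure D3:**
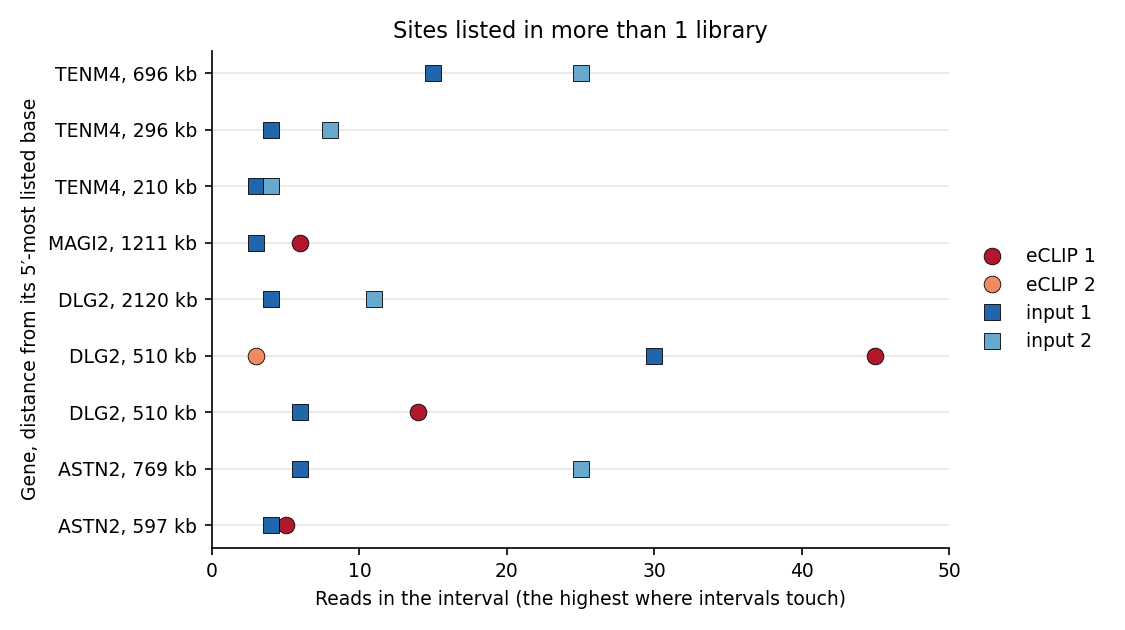
Reads at the 9 sites of the 4 genes that were listed in more than 1 library; each row is a site, named by its distance from the 5′-most listed base, and a marker stands for a library. The 5 sites of both inputs have no eCLIP marker, and the DLG2 site with 45 reads in eCLIP 1 has 30 in input 1. Reads are not scaled to the library.

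TENM4 intervals lay nearer the 5′ end in eCLIP 1 than in input 1. Of the 45 eCLIP 1 peaks, 12 lay within 10 kb of the 5′-most listed base, 30 within 50 kb and 36 (80.0%) within 100 kb. The 9 others were spread over the remaining span at 1.36 per 100 kb. In input 1, 4 of 28 intervals (2 touching pairs) lay within 100 kb and 24 beyond, or 3.61 per 100 kb of the rest. The 5 intervals of input 2 lay 210 to 696 kb from the 5′ end. The median distance was 35.6 kb in eCLIP 1, 358 kb in input 1 and 414 kb in input 2. The 5′-most base itself came from an eCLIP 1 peak.

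The TENM4 intervals of eCLIP 1 with at least 5 reads all lay near the 5′ end, among weaker ones of 3 or 4 reads. These 7 intervals were between 0.033 and 10.7 kb from it, the strongest at chr11:79151173-79151237 with 7 reads. In input 1 the 2 intervals with at least 5 reads lay 522 and 696 kb away. Neighbouring eCLIP 1 regions in TENM4 were a median of 2.42 kb apart, against 44.5 kb in input 1.

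MAGI2 intervals also had a lower median distance in eCLIP 1 than in input 1. Within 100 kb of the 5′-most listed base lay 16 of 28 eCLIP 1 peaks (57.1%) and 6 of 25 input 1 intervals (24.0%). The median distances were 73.1 kb and 266 kb. The span was cut into 10 equal parts. The 5′-most part held 17 eCLIP 1 peaks (60.7%, 42.4 to 76.4) and 8 of input 1 (32.0%, 17.2 to 51.6), so these intervals overlapped. In TENM4 the 5′-most part held 75.6% (61.3 to 85.8) of the peaks of eCLIP 1 and 14.3% (5.70 to 31.5) of input 1. Input 2 had 0 of 5 intervals there in TENM4 (upper end 43.4%) and 1 of 4 in MAGI2. The Wilson intervals cover counting error within a library and count touching lines separately. They hold no spread between libraries, so they cannot compare eCLIP with input. With touching intervals merged the shares were 75.6% (61.3 to 85.8) and 11.8% (3.29 to 34.3) in TENM4. In MAGI2 they were 63.0% (44.2 to 78.5) and 26.7% (10.9 to 52.0).

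DLG2 and ASTN2 had too few eCLIP peaks to place in this way. Of the 8 DLG2 peaks of eCLIP 1, 3 lay within 100 kb of the 5′ end, and the sites at 510 kb described above were another 2. Of its 15 input 1 intervals 4 lay within 100 kb. In ASTN2, 11 of 13 input 1 intervals lay beyond 100 kb, and 7 of the 13 (53.8%, 29.1 to 76.8) fell in the 3′-most of the 10 parts. Since eCLIP 2 listed no TENM4 or MAGI2 peak, the positions given for eCLIP in these genes rest on 1 library.

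**Figure D4:**
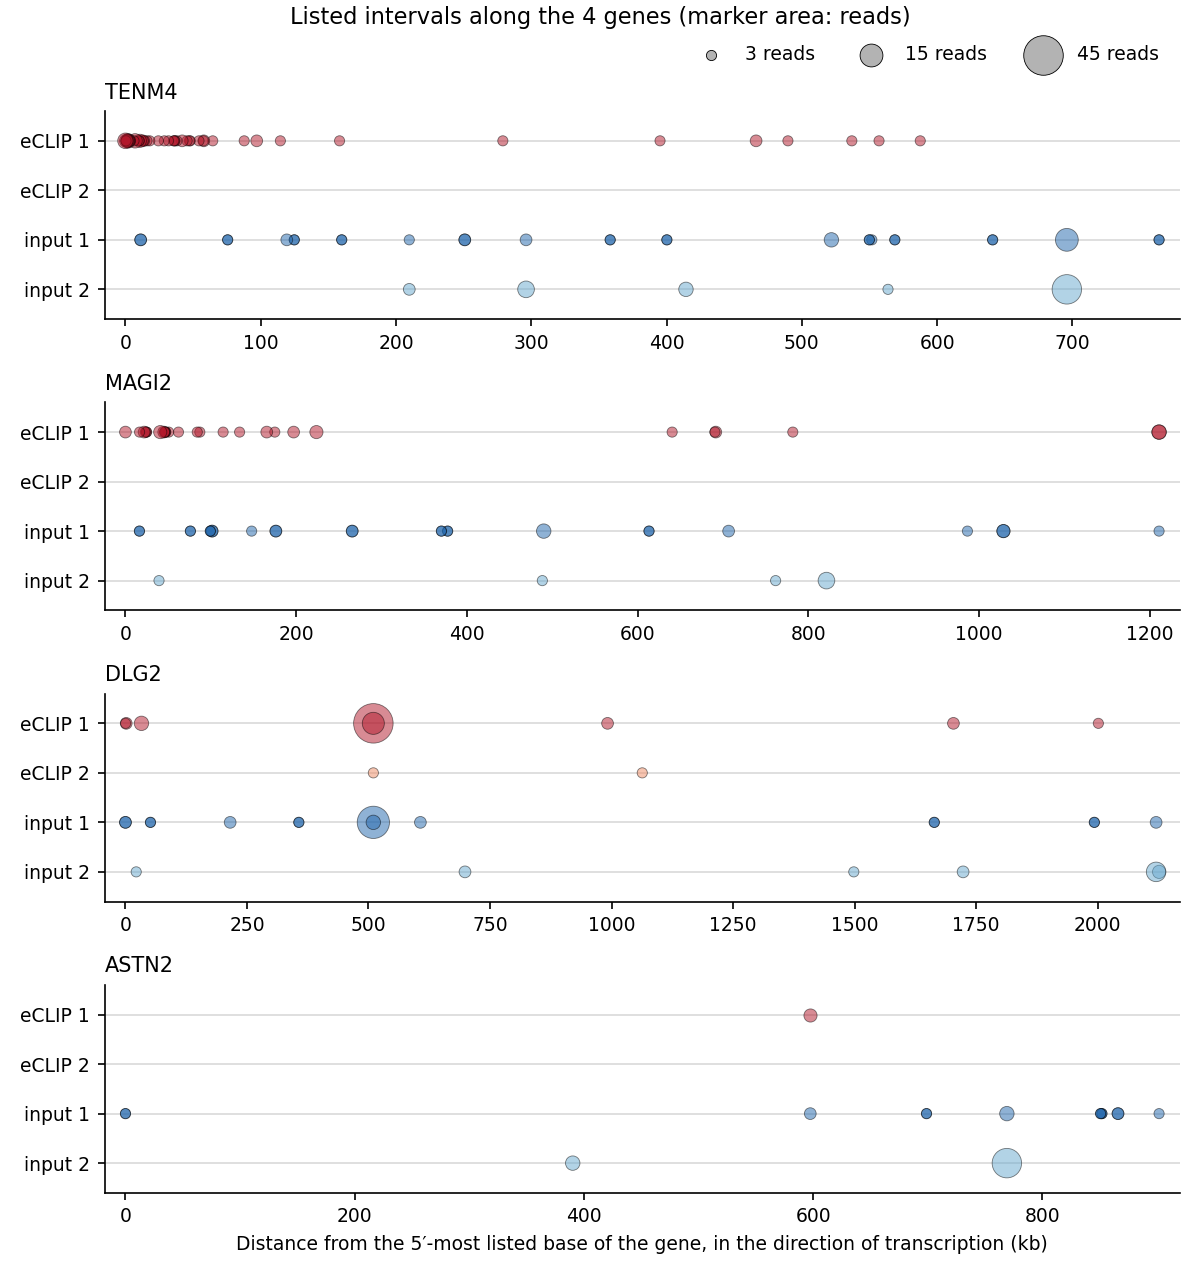
All 182 listed intervals of the 4 genes by distance in kb from the 5′-most listed base of each gene, 1 row per library; marker area is proportional to the reads, and touching pairs lie on top of each other and look darker. The eCLIP 1 intervals of TENM4 crowd into the first 100 kb (36 of 45), and the inputs are spread along the span.

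The same measure was taken in the 191 other genes whose peaks span at least 500 kb. Pooled over them, the 5′-most part held 22.0% (21.5 to 22.4) of eCLIP 1 and 17.5% (16.5 to 18.7) of input 1 intervals. Among the 123 of them with at least 20 eCLIP 1 peaks the median was 23.8%, with a range of 0 to 100%. A share at least as high as in TENM4 was seen in 7 of the 123, and one at least as high as in MAGI2 in 9. For input 1, 53 of 92 such genes had a share at least as high as TENM4 and 11 of 92 as MAGI2. In eCLIP 2 the pooled share was 24.6% (22.2 to 27.1) and in input 2 it was 17.8% (14.7 to 21.4). Whether TENM4 or MAGI2 differ from the other long genes was not tested.

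**Figure D5:**
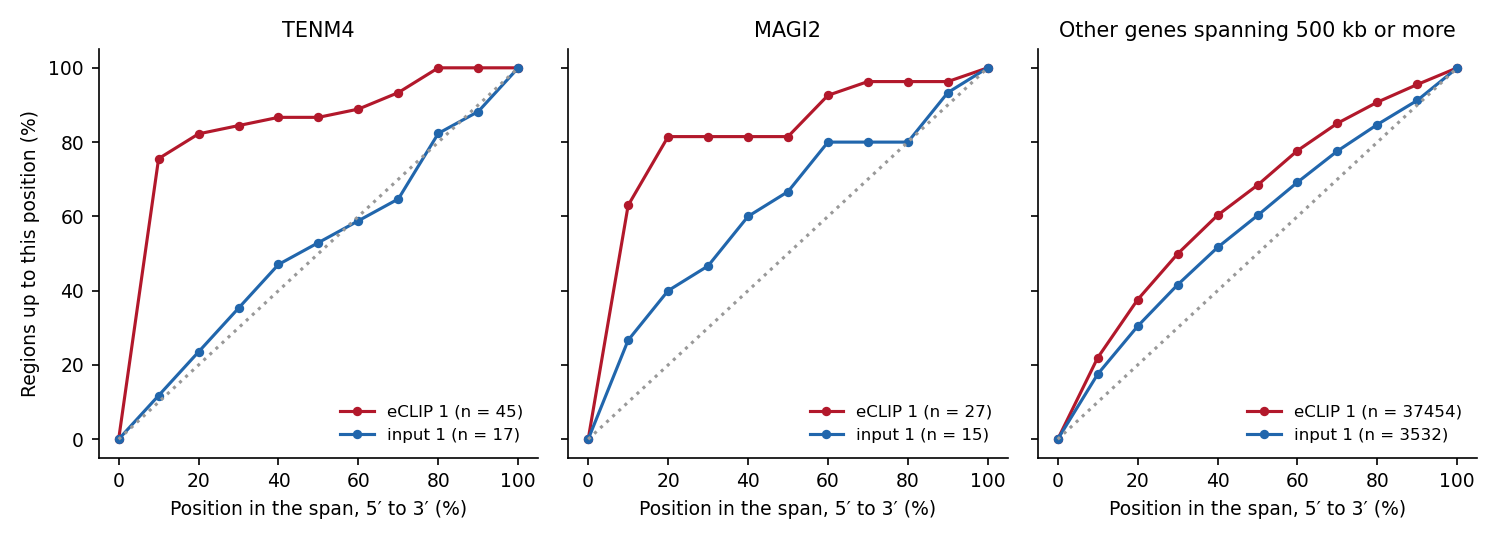
Cumulative percentage of regions (touching intervals merged) along the span from 5′ to 3′ in 10 equal parts, for TENM4, MAGI2 and the pooled other genes that span 500 kb or more, in eCLIP 1 and input 1; the dotted line is an even spread. At 10% of the span the TENM4 line of eCLIP 1 is at 75.6% and that of input 1 at 11.8%.

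By the measure that chose these 4, very long genes met the rule more often than all genes tested, but these sets are not alike. Of the 152 other long genes tested, both eCLIP shares lay below both inputs in 43 (28.3%), against 10.2% of all genes. A gene without an input 2 peak cannot meet this rule. The median input 2 share was 1.79 in the other long genes and 0 over all genes tested. Whether long genes meet the rule more often among genes with an input 2 peak was not tested. The median log2 difference was -0.84 for the 67 other long genes on the minus strand and -0.13 for the 85 on the plus strand. After merging these medians were -0.42 for the 63 minus-strand genes that still passed the filter and -0.28 for 83 on the plus strand. With reads in merged regions they were -0.71 and -0.34 over the 67 and 85 genes. Long genes took 7.86% of the peaks of eCLIP 1 and 2.87% of eCLIP 2, 7.59% of input 1 and 4.66% of input 2. These pooled shares did not follow the group: eCLIP 1 was the highest of the 4 libraries and eCLIP 2 the lowest. Within each group the library with the shorter list had the lower share.

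The genes most like the 4 in their shares over the 4 libraries were found by the distance between log2 shares and the mean of the 4. ENSG00000089157.11, on the minus strand of chr12:120634522-120638913, was the closest at 0.79 log2 units, with shares of 0.313 and 0.239 in eCLIP and 2.06 and 5.36 per 10000 in the inputs. Its listed peaks span 4.39 kb, far less than those of the 4 genes. ENSG00000107249.17, on the minus strand of chr9:3948248-4307377, followed at 0.83, with 0.250 and 0.477 against 3.01 and 2.68. Its listed peaks span 359 kb, and those of the genes ranked 3, 4 and 5 span 1788, 785 and 462 kb. The members themselves lay 0.53 (MAGI2) to 1.22 (ASTN2) from their mean.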

How the data were processed

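eCLIP and size-matched input libraries were grouped by their titles. Per the submitters' processing notes, cutadapt, STAR and SAMtools were used with hg19. Peak caller, annotation and versions: not given in the sources used here. Lists deposited by the authors hold the peaks of 1 library each, with a p-value per peak and a score derived from it; the score was not used. Positions are counted from 1. The members, lists and rules were chosen with earlier results of these data known. Gene symbols come from the rule that names the members. The RefSeq table of GRCh38 held no Ensembl identifiers, so 0 of 17764 identifiers could be matched to it. The family list of 31 genes (teneurins, latrophilins, guanylate kinase scaffolds and their partners) was therefore not analysed. All 4 members are described, and the 2 genes with the closest log2 shares are given. Peaks per gene were counted as listed, per 10000 of the library, and after merging touching or overlapping intervals of a gene. limma 3.58.1 in R 4.3.3 was fitted to log2(share + 0.5) over all 4 libraries for genes with at least 10 peaks, with p-values adjusted by Benjamini-Hochberg and called under 0.05. The fit was also run on simulated peak numbers with counting error only. That run does not show how the fit fares with the spread between these libraries. Overlap means at least 1 shared base on the same strand. Positions were counted in 10 equal parts of the span of listed peaks. Intervals are 95% Wilson intervals. Alternatives were merging, reads, covered bases, a p-value limit of 0.001, lists of equal length, pseudocounts of 0.1 and 2, no filter, a replicate block and each library left out.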

Additional observations from a re-analysis of the deposited data

How the results depend on the processing

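The difference of eCLIP minus input stayed below 0 for each of the 4 genes under every setting that gave a value. The choice of the genes fixed that sign for both pseudocounts, no filter, the replicate block and each library left out. The other settings draw on the same peaks, so the sign lends the choice no independent support. The difference moved by more than the spread between libraries (1 SD) in these cases. Leaving out 1 library cannot move it by more than this SD, whatever the values, so those fits are given as ranges. With a pseudocount of 0.1 it was -3.82 for TENM4, -3.88 for MAGI2, -3.23 for DLG2 and -4.20 for ASTN2, and with a pseudocount of 2 it was -1.41, -1.34, -1.29 and -0.96. In lists of equal length, a cut that keeps all of input 2 and drops most of eCLIP 1, it was -3.43 for TENM4 and -3.63 for MAGI2. ASTN2, whose SD was 0.09, also moved to -2.49 with reads, -1.98 with covered bases, -2.37 without intervals of several genes, and -2.58 with reads in merged regions, a setting added after the data were seen. With 1 library left out, the ranges were -3.31 to -1.78 for TENM4, -3.09 to -1.98 for MAGI2, -2.86 to -1.83 for DLG2 and -2.33 to -2.16 for ASTN2. ASTN2 did not pass the filter in lists of equal length, nor did MAGI2, DLG2 and ASTN2 at a p-value limit of 0.001.

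Over all genes, limma called 0 higher and 0 lower. The replicate block gave 3 higher and 1 lower, and the lower one was TENM4, with the estimate of -2.55 as without the block (SE 0.60); it was chosen by this contrast. The labels do not say that equal numbers mark a shared culture, and the deviations of same-numbered libraries correlated at 0.40 across genes. With 1 library left out, where a lone library is assumed to vary like the other group, the counts ran from 0 to 695 higher (695 without eCLIP replicate 2) and from 0 to 5 lower (5 without input replicate 1, 1 without input replicate 2), and none of those lower genes was one of the 4. With the span cut into 5 parts in place of 10, the 5′-most part is wider and its share of MAGI2 in eCLIP 1 went from 60.7% to 78.6%. For all minus-strand genes, the share of input 1 intervals found in eCLIP 1 went from 11.7% to 9.74% where the overlap had to reach 0.5 of the shorter interval and to 15.2% after merging, and that of eCLIP 1 in input 1 from 1.54% to 1.34% and 1.48%. In the 4 genes those shares stayed at 4.94% and 6.10% under the longer overlap and were 8.0% and 4.94% after merging. The shortness of the lists of eCLIP 2 and input 2 limits every count above.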
